A study of Mus musculus with 8 samples.

Results

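Parvalbumin interneurons of mouse primary visual cortex (V1) were represented by 3905 nuclei, which are 3.82% of the 102330 nuclei of the series and 37.5% of its 10403 inhibitory nuclei. They are the nuclei that the authors' deposited cell table names Pvalb, and their unique molecular identifiers (UMIs, each counting 1 captured RNA molecule) were summed within each of 8 libraries. All mice carried 2 loxP-flanked alleles of Nr3c1, the gene of the glucocorticoid receptor (GRfl/fl), received an AAV2/5 vector at birth and were collected at postnatal day 21. GR-KO mice received GfaABC1D-Cre-T2A-EGFP-CAAX-4x6T-WPRE, in which an astrocyte promoter drives Cre. GR-Con mice received the same construct with ΔCre, which does not recombine loxP sites. Mice were reared normally (NR) or in the dark (DR), which crossed with genotype gave 4 groups of 2 mice, 1 male and 1 female by the library names. The promoter is directed to astrocytes and, according to the study's methods, nuclei were sorted as DRAQ5-positive and GFP-negative, so the GR-KO comparison in Pvalb nuclei concerns neurons of mice in which astrocytes were the target.

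Parvalbumin interneurons are fast-spiking inhibitory neurons of which most are basket cells that contact the soma and proximal dendrites of their targets. They rely on Kv3 potassium channels for brief action potentials, on synaptotagmin 2 for fast transmitter release and on parvalbumin to buffer calcium. In visual cortex their maturation after eye opening, including the growth of the perineuronal net around them, is linked to visual experience and to the timing of the critical period.

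The label was checked against the defining genes. Pvalb RNA stood at 47.2 UMIs per 1000000 (CPM) in Pvalb nuclei, at 14.1 CPM in chandelier nuclei (ChC) and at 3.0 CPM in Sst nuclei. Of 8 markers (Pvalb, Kcnc1, Syt2, Tac1, Lhx6, Acan, Cox6a2 and Gad1), 5 were higher in Pvalb nuclei than in the other 19 types of the table. Lhx6, a transcription factor of interneurons from the medial ganglionic eminence, was higher in Sst and ChC nuclei. Acan, the perineuronal net proteoglycan aggrecan, was higher in oligodendrocyte precursors (40.2 against 15.4 CPM), and Gad1, which makes GABA, was higher in Lamp5 and ChC nuclei. Vip and Slc17a7, which mark other neurons, were at 3.4 and 11.1 CPM. The types were made from these counts, so these levels are a description and carry no test.

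The 8 libraries held 277 to 672 Pvalb nuclei and 6424148 to 13392739 UMIs in them. The median nucleus had 14940 to 22154 UMIs in 7 libraries and 31974 in the NR GR-KO female library, which stood apart and also held the fewest nuclei. Of 3901 barcode sequences of Pvalb nuclei, 4 occurred in more than 1 library. Pvalb nuclei made up 2.91 to 4.82% of all nuclei of a library. By the quasi-likelihood F-test of edgeR, run on how many nuclei each of 20 types had and adjusted over them, this share differed between DR and NR by -0.01 on the log2 scale (SE 0.19, adjusted p = 1.00) and between GR-KO and GR-Con by -0.12 (SE 0.20, adjusted p = 0.89), so neither difference passed the test. Nr3c1 itself stood at 78.9 to 94.2 CPM in Pvalb nuclei of all 8 libraries, with NR GR-KO at 85.6 and 94.2 CPM and NR GR-Con at 82.9 and 93.2 CPM. It passed no test between groups, and as the libraries read 3' ends its level does not check the deletion.

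RNA of the vector was read in Pvalb nuclei. At least 1 Cre UMI lay in 49 of 585 (8.38%) and 9 of 277 (3.25%) nuclei of the NR GR-KO male and female and in 5 of 398 (1.26%) and 17 of 456 (3.73%) nuclei of the DR GR-KO male and female. In GR-Con it lay in 0 of 2189 nuclei, which allows a share of up to 0.137%. In astrocytes the shares were 7.36 and 3.78% in the NR GR-KO male and female and 4.82 and 3.09% in the DR GR-KO male and female. In the same order they were 9.46, 6.43, 2.24 and 2.45% in Sst nuclei. L4 nuclei had 15.6, 3.76, 2.18 and 2.25% and Vip nuclei 4.32, 0, 0.758 and 0.356%. In oligodendrocytes, which should not use the promoter, the GR-KO shares were 0 to 0.397% of nuclei. Per UMI, Cre stood at 0.778 to 3.96 CPM in Pvalb nuclei, at 4.14 to 10.4 CPM in astrocytes and at 0 to 0.33 CPM in oligodendrocytes of GR-KO mice. EGFP of the same construct stood at 22.8, 8.63, 23.4 and 12.2 CPM in GR-KO astrocytes (same order), above Cre in each library. Pvalb nuclei of these libraries held 15, 3, 3 and 0 EGFP UMIs beside 53, 11, 5 and 17 Cre UMIs. In each GR-KO library the CPM of EGFP was lower in Pvalb nuclei than in astrocytes. The paper reads EGFP RNA across cell types as evidence that its vectors are specific to astrocytes. Why Cre and EGFP differ in this was not tested. UMIs that the files assign to delCre stood at 0.162 to 0.482 CPM in GR-Con and at 0.467 to 3.43 CPM in GR-KO, so that row does not separate the vectors. The part of vector RNA in the genotype results was not tested.

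Pvalb RNA was sparse. Across all libraries 53.4% of the nuclei had a Pvalb UMI and no nucleus had more than 8. The share was 61.7 and 54.6% in NR GR-Con, 61.4 and 69.0% in NR GR-KO, 41.5 and 46.9% in DR GR-Con and 47.0 and 53.5% in DR GR-KO (male, then female). All 4 DR libraries lay below all 4 NR libraries (difference -14.4 percentage points, two-sided exact permutation p = 0.0286, the smallest that 4 against 4 libraries can give). The median UMI count of the nuclei was 14940 to 20600 in DR and 17040 to 31974 in NR, ranges that overlap. After every nucleus was thinned to 5000 UMIs, which left out 9 nuclei, the share was 20.4 to 22.9% in NR, 13.1 and 16.1% in DR GR-Con and 22.3 and 22.5% in DR GR-KO. The difference between DR and NR was then -2.95 points (exact permutation p = 0.371). In types that should lack the gene the thinned share was lower in DR as well. In oligodendrocytes it was 0.896 to 1.85% in NR and 0.393 to 0.813% in DR, at unthinned median depths of 7040 to 15571 UMIs. In excitatory L4 nuclei it was 0.392 to 0.732% in NR and 0.131 to 0.242% in DR, at median depths of 15660 to 32205 UMIs. In both types every DR library lay below every NR library.

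To ask what dark rearing changed in Pvalb nuclei, the 4 DR libraries were compared with the 4 NR libraries with genotype as a term. In DR, RNA of 6 of 30 genes for glutamate receptors and their partners was called higher by edgeR's likelihood ratio test. RNA of the GABA receptor subunit gene Gabrd, of 3 neuropeptides and of 3 genes induced by activity (Egr1, Nrn1 and Bdnf) was called lower. Of these, the neuropeptide gene Cort, Egr1 and Bdnf were not called by quasi-likelihood. DESeq2 called 1 of 7 neuropeptide genes, 1 of 15 immediate early genes and 1 of 12 later effector genes of activity. Of 14867 genes tested, 259 were higher and 231 lower in DR at an adjusted p below 0.05 in edgeR's likelihood ratio test, which is 3.3% of the genes (1.74% higher and 1.55% lower). edgeR's quasi-likelihood F-test called 124 higher and 84 lower, or 1.4%. Over all genes, 4.12% had every DR library above every NR library and 5.62% had every DR library below. Without the NR GR-KO female library, the likelihood ratio test called 257 genes in all. In bulk sums of this kind, fewer cells of a state and less RNA per cell cannot be told apart.

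Miat, a long non-coding RNA retained in the nucleus, had the smallest adjusted p of the genes higher in DR by the naming rule. It stood at 46.0, 42.9, 38.5 and 39.3 CPM in the NR libraries and at 66.6, 82.1, 58.5 and 64.3 CPM in the DR libraries. Every DR library was above every NR library, as the naming rule requires (log2 fold change 0.71, SE 0.09, adjusted p = 3.7e-10). Cacng3, an auxiliary subunit that carries AMPA receptors to the synapse, had 49.4, 40.5, 54.8 and 54.0 CPM in NR and 61.5, 74.6, 91.2 and 74.4 CPM in DR (0.61, SE 0.10, adjusted p = 2.2e-06). The groups did not overlap, which the naming rule requires here as well. The adhesion molecules Kirrel3 (0.65, SE 0.12) and Chl1 (0.59, SE 0.12) and R-cadherin, Cdh4 (0.74, SE 0.19), were also higher, as were Wscd2 (0.65, SE 0.12), Mageb18 (0.74, SE 0.11) and Sgcd, a sarcoglycan (0.59, SE 0.13). Kirrel3 ranged from 643 to 989 CPM in NR and from 1219 to 1395 CPM in DR, and Chl1 from 162 to 211 and from 229 to 338 CPM.

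Osbpl3, which encodes an oxysterol-binding protein, had the largest fall among genes named by the rule. It stood at 1154, 1234, 1092 and 755 CPM in NR and at 410, 372, 745 and 422 CPM in DR (-1.12, SE 0.21, adjusted p = 6.8e-05). The DR GR-KO male library, at 745 CPM, lay next to the lowest NR library, the NR GR-KO female. Grm8, a presynaptic metabotropic glutamate receptor, fell from 57.7, 40.3, 31.4 and 42.8 CPM to 27.9, 29.9, 11.8 and 20.9 CPM (-0.94, SE 0.18, adjusted p = 7.7e-05). In nuclei with 10000 to 30000 UMIs the difference of Grm8 was -0.47 and did not pass (adjusted p = 0.21). Gabrd, the δ subunit of extrasynaptic GABA receptors, had 71.6, 71.1, 57.4 and 69.3 CPM in NR and 44.3, 41.7, 47.2 and 55.2 CPM in DR (-0.51, SE 0.12, adjusted p = 0.0028), with the DR GR-KO female and NR GR-KO male libraries closest to each other. Haghl (-0.57, SE 0.09), Lgi2, a secreted synaptic protein (-0.50, SE 0.11), β-actin, Actb (-0.50, SE 0.12), and the gene models Gm19410 and A230004M16Rik were also lower. Of the 16 genes named by the rule, 13 kept their call without each library in turn and 13 were called by the quasi-likelihood test. The exceptions in both were Cdh4 (adjusted p = 0.067 by quasi-likelihood, 0.16 in nuclei with 10000 to 30000 UMIs, where its difference was 0.52, and 0.060, 0.065, 0.073 and 0.13 without the NR GR-Con female, NR GR-KO female, DR GR-Con female and DR GR-KO male library), Gm19410 (0.071, 0.052 and 0.071 without the NR GR-Con male, NR GR-KO female and DR GR-KO male) and A230004M16Rik (0.098 without the DR GR-KO male).

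**Figure D1:**
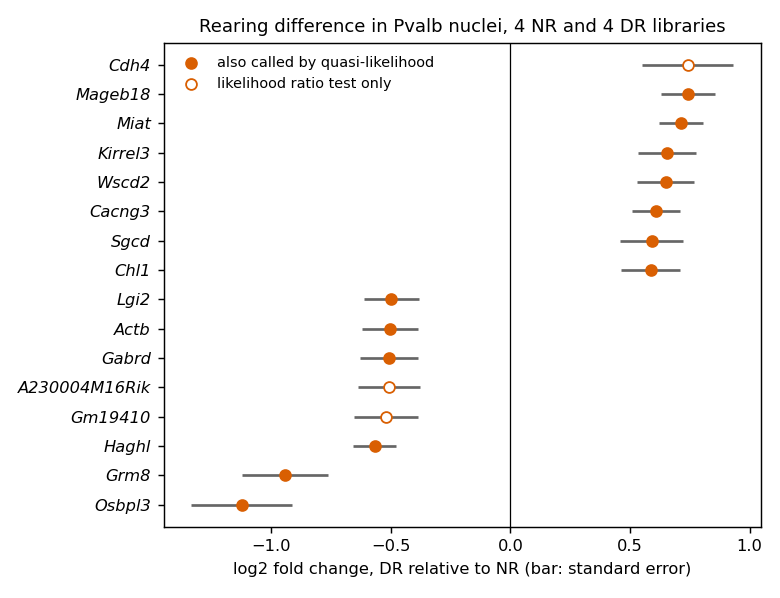
Log2 fold change between DR and NR (x axis; bar, standard error) for the 16 genes named by the rule in Pvalb nuclei (y axis), over 4 NR and 4 DR libraries. Filled points passed both edgeR tests and open points (Cdh4, Gm19410 and A230004M16Rik) passed the likelihood ratio test only; Osbpl3 lies furthest below 0 at -1.12.

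The gene lists read from here on were chosen with earlier results of these data known. A list's share of calls beside that of all genes is therefore no independent support. Among receptors for glutamate, 6 of 30 tested genes were higher and 1, Grm8, was lower in DR, beside 1.74 and 1.55% of all genes. The median log2 fold change was 0.09 beside 0.0003 over all genes tested, and 10 of the 30 had a value below 0. The higher genes encode the AMPA receptor subunit Gria1, the AMPA receptor partners Cacng3 and Cacng8, the NMDA receptor subunit Grin2d, which is typical of interneurons, the kainate receptor subunit Grik5 and the δ1 subunit Grid1. Gria1 stood at 1887, 1987, 1999 and 1799 CPM in NR and at 2205, 2358, 2446 and 2121 CPM in DR (0.26, SE 0.08, adjusted p = 0.025). Grin2d rose from 41.1, 41.5, 39.3 and 35.1 CPM to 45.5, 50.1, 53.5 and 54.3 CPM (0.38, SE 0.09, adjusted p = 0.0051). All DR libraries were above all NR libraries for both genes. The calls of Gria1, Grik5, Grid1 and Cacng8 rested on all libraries: each was lost in 5 or 7 of the 8 fits that left out a library, among them for all 4 genes the fits without the NR GR-Con male (adjusted p 0.15, 0.053, 0.12 and 0.079) and the DR GR-KO male (0.21, 0.15, 0.07 and 0.17), while the direction was the same throughout. Gria1 also lost its call in nuclei with 10000 to 30000 UMIs (0.053). Grin2d lost its call without either DR GR-KO library (0.067 and 0.050).

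Of 18 genes for GABA receptors and the inhibitory postsynapse, 2 were lower and 0 higher, beside 1.55 and 1.74% of all genes, and the median was -0.11 beside 0.0003. Gabrd, described above, was among the lower genes.

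Neuropeptide genes had a median of -0.57 beside 0.0003 over all genes, and 3 of 7 tested were lower (Npy, Cck and Cort), beside 1.55% of all genes. Npy, neuropeptide Y, had 7.94, 5.3, 8.06 and 6.58 CPM in NR and 2.51, 3.02, 2.80 and 3.04 CPM in DR, where every library was below every NR library (-1.29, SE 0.20, adjusted p = 2.3e-07). Without the 1% of nuclei with most Npy UMIs, the difference was -1.80 (adjusted p = 8.5e-10). That step drops nuclei by the counts of Npy itself, which 3.07 to 14.4% of the nuclei of a library held. The larger value is therefore no added support. Cck, cholecystokinin, stood at 8.32 to 12.2 CPM in NR and at 5.58 to 7.84 CPM in DR (-0.57, SE 0.13, adjusted p = 0.0032), and Cort, cortistatin, at 9.28 to 14.9 and 7.04 to 8.55 CPM (-0.58, SE 0.16, adjusted p = 0.021). The call of Cort was lost by quasi-likelihood (0.074) and without the NR GR-Con male, the NR GR-KO male, the DR GR-Con male or either DR GR-KO library (adjusted p 0.051 to 0.16).

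Genes that neurons induce when active were low in Pvalb nuclei, and few passed the test. Of 15 immediate early genes tested, 13 had a fold change below 0 and the median was -0.64 beside 0.0003 over all genes. By quasi-likelihood none of the 15 was called. An unadjusted p below 0.05 by the likelihood ratio test was found for 8 of them, beside 2302 of all 14867 genes. After adjustment that test called only Egr1, a zinc finger transcription factor, lower, beside 1.55% of all genes. It stood at 6.47, 3.13, 11.7 and 4.65 CPM in NR and at 2.10, 3.72, 1.71 and 3.04 CPM in DR (-1.22, SE 0.36, adjusted p = 0.030, and 0.10 by quasi-likelihood). The groups overlapped, and the call was lost without the NR GR-Con male, the NR GR-KO male, the DR GR-Con male or either DR GR-KO library (adjusted p 0.072 to 0.20). Of 12 later effector genes of activity, 2 were lower, beside 1.55% of all genes, and the median was -0.51. Nrn1, neuritin, fell from 9.99, 5.42, 10.1 and 11 CPM to 2.75, 5.27, 3.27 and 4.30 CPM (-1.19, SE 0.24, adjusted p = 0.00039). Bdnf, brain-derived neurotrophic factor, had 1.82 to 4.10 CPM in NR and 1.09 to 1.70 CPM in DR (-1.25, SE 0.32, adjusted p = 0.0077), from 176 UMIs in all 8 libraries, and lost its call by quasi-likelihood (0.059), in nuclei with 10000 to 30000 UMIs (-0.99, adjusted p = 0.11) and without the NR or the DR GR-Con female (0.071 and 0.053).

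Of 18 circadian clock genes, 2 were lower, beside 1.55% of all genes: Dbp, a D-box transcription factor, with 7.54 to 11.6 CPM in NR and 5.06 to 6.23 CPM in DR (-0.84, SE 0.18, adjusted p = 0.0008), and Ciart, a clock repressor, with 7.35 to 9.31 and 3.42 to 5.29 CPM (-0.97, SE 0.16, adjusted p = 2.8e-06). Neither overlapped between NR and DR. According to the study's methods, all mice were collected in the same window of the day, and DR mice had been kept in chronic darkness until then. The phase of the clock in NR and DR mice was not measured, and its part in these differences was not tested. The other 16 clock genes did not pass the test, and the median of the list was -0.08.

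The channels and synaptic proteins of the fast-spiking type are read beside the 3.3% of all genes called over the 8 libraries. Of 32 ion channel genes, Kcna6 (Kv1.6) was higher (0.43, SE 0.12, adjusted p = 0.014) and Kcns3, a modulatory Kv subunit typical of these cells, was lower (-0.34, SE 0.10, adjusted p = 0.032). By quasi-likelihood neither was called (0.058 and 0.069), and Kcns3 did not pass in nuclei with 10000 to 30000 UMIs (-0.27, adjusted p = 0.15). Kcna6 ranged from 42.6 to 52.0 CPM in NR and from 47.8 to 75.5 CPM in DR, with the DR GR-Con male inside the NR range, and lost its call without either DR GR-KO library, the NR GR-KO female or the DR GR-Con female (adjusted p 0.069 to 0.10). Kcns3 ranged from 113 to 136 CPM in NR and from 87.5 to 108 CPM in DR, and lost its call without either NR GR-Con library, the NR GR-KO female, the DR GR-Con female or the DR GR-KO male (0.11 to 0.21). Among 25 genes of presynaptic release only Syn2, synapsin 2, passed, with 367, 379, 423 and 374 CPM in NR and 443, 511, 529 and 523 CPM in DR (0.39, SE 0.08, adjusted p = 0.00024). Every DR library was above every NR library for Syn2, and the call held without each library in turn.

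Genes of the perineuronal net and chondroitin synthesis (19 tested, median -0.02), of calcium buffering and GABA synthesis and transport (10 tested, median 0.07) and of corticosteroid receptors and glucocorticoid targets (15 tested, median -0.05) gave 0 calls by edgeR's likelihood ratio test, by its quasi-likelihood test and by DESeq2, with 3, 2 and 2 genes at an unadjusted p below 0.05. Genes that mark subtypes of parvalbumin cells (9 tested, median -0.29) gave 0 calls as well, with 4 at an unadjusted p below 0.05. Over all genes, 2302 of 14867 had an unadjusted p below 0.05 by the likelihood ratio test. Of 19 trophic receptor and synaptic adhesion genes, Nrxn2, neurexin 2, was higher (0.36, SE 0.08, adjusted p = 0.0025) and Lgi2 was lower, beside 1.74% of all genes higher and 1.55% lower. Of 27 axon guidance genes, Slit3 (0.34, SE 0.09, adjusted p = 0.015) and Efna5 (0.30, SE 0.09, adjusted p = 0.022) were higher, beside the same 1.74%. Nrxn2 lost its call without the DR GR-KO male (0.056), Slit3 without 5 libraries (0.079 to 0.12) and Efna5 without 5 (0.068 to 0.14) and in nuclei with 10000 to 30000 UMIs (0.30). Of 16 lineage factors Zeb2 was higher (0.24, SE 0.08, adjusted p = 0.041, and 0.057 in nuclei with 10000 to 30000 UMIs). Zeb2, a repressor that directs migrating interneurons to the cortex, had 801 to 867 CPM in NR and 920 to 1064 CPM in DR, and lost its call in 7 of the 8 fits without a library, all but the one without the DR GR-Con male (0.062 to 0.20). Of 5 genes that were chosen for their darkness response in excitatory neurons of these same libraries, Syt17, St6galnac5 and Ptpru were higher and Osbpl3 was lower, which is not independent of that choice. Syt17 lost its call without 6 libraries (0.12 to 0.29), St6galnac5 without 3 (0.057 to 0.11) and Ptpru without 2 (0.066 and 0.14), while Osbpl3 kept it. By quasi-likelihood Osbpl3 alone of these was called (0.083, 0.053 and 0.062 for the others), and Syt17 did not pass in nuclei with 10000 to 30000 UMIs either (0.18).

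**Figure D2:**
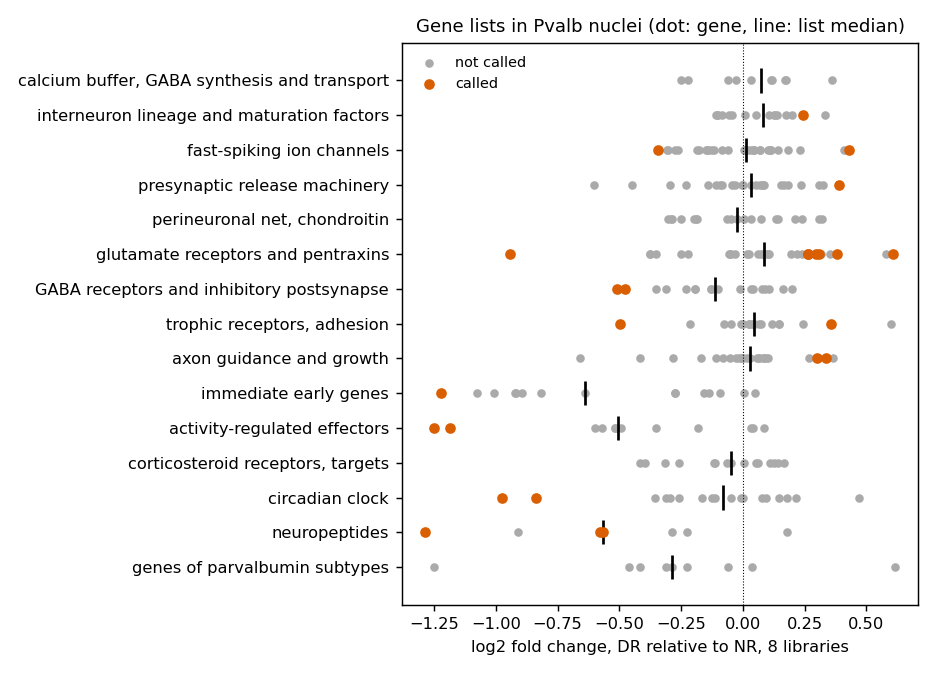
Log2 fold change between DR and NR over 8 libraries (x axis) of each tested gene (dot) in the gene lists (y axis) in Pvalb nuclei. Orange dots passed the likelihood ratio test and the black line is the list's median; the medians of the immediate early genes, the activity-regulated effectors and the neuropeptides lie at -0.64, -0.51 and -0.57, and those of the fast-spiking ion channels and the perineuronal net near 0.

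Markers of other cells moved with rearing as well. All 9 astrocyte markers tested had a fold change below 0, and Aldoc (-1.22), Gja1 (-0.93) and Apoe (-0.74) were called lower in DR, beside 1.55% of all genes. Aldoc kept its call without each library, and Gja1 lost it without 6 (0.056 to 0.17) and Apoe without 5 (0.06 to 0.14). By quasi-likelihood Aldoc alone was called (0.10 and 0.083 for the others). The summed level of the 9 genes in Pvalb nuclei was 507 to 670 CPM in NR and 408 to 520 CPM in DR, of which most is Slc4a4 (413 CPM in Pvalb nuclei), which these neurons share with astrocytes. Of 7 excitatory markers tested, Cux2, which interneurons also express, was higher (0.41), beside 1.74% of all genes. The sum of the 7 was 378 to 415 CPM in NR and 413 to 512 CPM in DR. Lamp5 (-1.06, and not called without the DR GR-KO male, 0.056) was lower. Markers of chandelier cells (2 tested), Sst cells (3), Vip cells (1), oligodendrocyte precursors (3), microglia (4) and vessels (1) gave 0 calls by either edgeR test and by DESeq2, with Vip and 1 microglial gene at an unadjusted p below 0.05, beside 2302 of all 14867 genes. The part of RNA from other cells in the results above was not tested.

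Promoters of the genes that differed were searched for 5 short motifs. The windows run from 250 bases before to 50 bases after the RefSeq start (GRCm38.p6) and were found for 10962 of the 14867 genes tested, for 194 of the 259 higher and for 166 of the 231 lower genes. The AP-1 motif (TGACTCA or TGAGTCA, which are each other's opposite strand) lay in 4.49% of all these promoters, in 5.67% of the higher and in 5.42% of the lower genes. The CRE motif (TGACGTCA, the same on both strands) lay in 3.54, 2.58 and 4.22%. The motif of EGR factors (GCGTGGGCG or CGCCCACGC) lay in 1.35, 1.03 and 1.20%, and that of the glucocorticoid receptor (the palindromic response element, both strands) in 0.383, 0.515 and 0%. The motif of estrogen-related receptors (TGACCTTGA, both strands) lay in 0.356, 0 and 0.602%. The windows below, 5′ to 3′ on the strand of the gene with the motif in capitals, come from genes called in DR that were chosen by hand after their values were seen, and each match is a description of the sequence only. Zeb2 has 2 AP-1 motifs before its start (2:45110383-45110429 and 2:45110440-45110486, minus strand). Mme, which encodes the peptide-degrading enzyme neprilysin, has 1 (3:63295860-63295906, plus strand). Ptpru, a receptor tyrosine phosphatase (4:131838292-131838339, minus strand), was higher and Hs3st2, a heparan sulfate sulfotransferase (7:121392207-121392254, plus strand), and Cycs, cytochrome c (6:50566711-50566758, minus strand), were lower, each with a CRE.
Zeb2, nearer: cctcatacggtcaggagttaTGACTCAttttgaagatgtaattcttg
Zeb2, farther: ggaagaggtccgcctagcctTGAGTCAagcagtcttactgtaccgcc
Mme: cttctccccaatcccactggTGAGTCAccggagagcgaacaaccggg
Ptpru: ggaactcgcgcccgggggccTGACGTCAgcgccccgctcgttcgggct
Hs3st2: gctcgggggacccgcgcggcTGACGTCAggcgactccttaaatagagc
Cycs: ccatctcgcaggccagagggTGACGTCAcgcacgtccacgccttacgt

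Within GR-Con mice, RNA of Pvalb, Kcnc1 and Syt2, 3 of 8 parvalbumin markers, was called lower in DR, and each of these calls was lost without some single libraries. Of 14677 genes tested, 144 were higher and 73 lower in DR GR-Con than in NR GR-Con (1.48% of the genes, 0.981 and 0.497% by direction), with 29 and 17 by quasi-likelihood. With 2 mice a group, the spread rests on few animals. Pvalb had 56.0 and 51.4 CPM in NR GR-Con, 50.0 and 50.6 CPM in NR GR-KO, 33.9 and 38.4 CPM in DR GR-Con and 50.7 and 53.4 CPM in DR GR-KO. Both DR GR-Con libraries lay below the other 6. The difference between DR GR-Con and NR GR-Con was -0.57 (SE 0.13, adjusted p = 0.0017 by the likelihood ratio test and 0.059 by quasi-likelihood), and the call was lost without the NR GR-Con male (0.33) or the DR GR-Con male (0.060). In the same direction, the difference was -0.60 without the 1% of nuclei with most Pvalb UMIs and -0.62 in nuclei with 10000 to 30000 UMIs (adjusted p = 0.00043 and 0.00015).

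In astrocytes and L4 nuclei of GR-Con mice the level of Pvalb RNA was lower in DR too. It was 3.97 and 2.69 CPM in NR and 0.942 and 1.35 CPM in DR astrocytes, and 1.24 and 0.723 CPM in NR and 0.344 and 0.411 CPM in DR L4 nuclei. Chandelier nuclei, of which these libraries held 6 and 6 in NR and 9 and 11 in DR, stood at 11.1 and 0 CPM and at 12.8 and 9.24 CPM, too few nuclei to read an order from. In GR-KO mice it was 3.32 and 4.14 CPM in NR and 1.10 and 1.39 CPM in DR astrocytes. Over all 8 libraries the rearing difference of Pvalb RNA was -0.25 (SE 0.13, adjusted p = 0.31) in Pvalb nuclei and higher there than in Sst nuclei by 0.51 (SE 0.27, adjusted p = 0.60) and than in Vip nuclei by 1.33 (SE 0.49, adjusted p = 0.35), neither of which passed. The part of free RNA in the fall within Pvalb nuclei was not tested.

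Kcnc1, the Kv3.1 channel that allows fast spiking, followed the same order of groups. It had 428 and 474 CPM in NR GR-Con, 398 and 430 CPM in NR GR-KO, 327 and 320 CPM in DR GR-Con and 440 and 441 CPM in DR GR-KO, so that both DR GR-Con libraries were again the lowest. The difference within GR-Con was -0.48 (SE 0.13, adjusted p = 0.015), and it was lost as a call without either NR GR-Con library or the DR GR-Con female (0.084, 0.61 and 0.14). Syt2, synaptotagmin 2, had 123 and 135 CPM in NR GR-Con and 84.6 and 98.8 CPM in DR GR-Con (-0.49, SE 0.13, adjusted p = 0.017), and lost its call without either NR GR-Con library or the DR GR-Con male (0.087, 0.61 and 0.086). By quasi-likelihood none of the 3 was called (0.059, 0.059 and 0.083). They were the ones called among 8 parvalbumin markers, whose median was -0.39 beside -0.0001 over all genes tested. Gad1 had 318 and 310 CPM in NR GR-Con and 266 and 335 CPM in DR GR-Con and did not pass the test (-0.07, SE 0.14, adjusted p = 0.96).

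**Figure D3:**
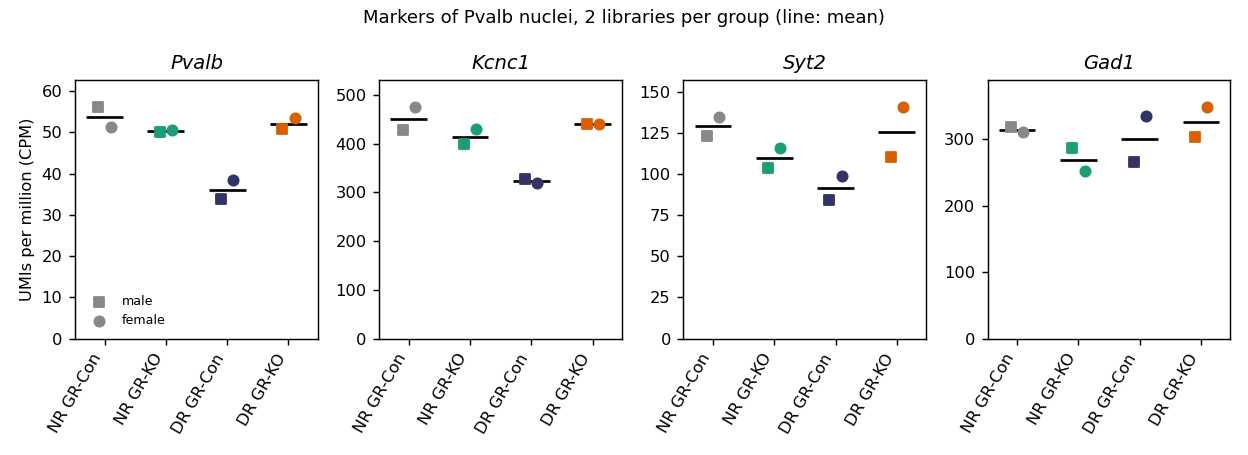
CPM (y axis, from 0) of Pvalb, Kcnc1, Syt2 and Gad1 in Pvalb nuclei by group (x axis), with a square for the male and a circle for the female library and a line for their mean. The DR GR-Con libraries are the lowest for Pvalb (33.9 and 38.4), Kcnc1 (327 and 320) and Syt2 (84.6 and 98.8), whereas the groups overlap for Gad1.

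Other synaptic genes differed within GR-Con. Grin2a, the NMDA receptor subunit that replaces Grin2b as cortex matures, had 1079 and 1153 CPM in NR GR-Con and 744 and 786 CPM in DR GR-Con (-0.55, SE 0.12, adjusted p = 0.001 and 0.030 by quasi-likelihood). It was not called without the NR GR-Con female (0.23). Bcan, the perineuronal net proteoglycan brevican, had 68.8 and 69.2 CPM in NR GR-Con and 45.5 and 46.3 CPM in DR GR-Con (-0.59, SE 0.12, adjusted p = 0.00024 and 0.037 by quasi-likelihood), and was not called without either NR GR-Con library (0.077 and 0.063). Of the 20 perineuronal net genes tested, Bcan was lower and Ptprz1, a proteoglycan phosphatase, was higher (0.75, SE 0.21, adjusted p = 0.028, and 0.18 by quasi-likelihood), beside 0.497 and 0.981% of all genes, with a median of -0.003. Ptprz1 was not called without the NR GR-Con female or the DR GR-Con male (0.65 and 0.17). Glia express Bcan and Ptprz1 too, and in the same comparison the astrocyte marker Aldoc was called lower (-1.59, SE 0.34, adjusted p = 0.00063), though not without the NR GR-Con male (0.19). It was the 1 marker called of 9, whose sum was 670 and 562 CPM in NR GR-Con and 514 and 456 CPM in DR GR-Con. The part of astrocyte RNA in these differences was not tested. Unc5d, a netrin receptor, was higher, with 623 and 568 CPM in NR GR-Con and 890 and 825 CPM in DR GR-Con (0.53, SE 0.13, adjusted p = 0.0044), and not without either NR GR-Con library (0.13 and 0.39). Of the 16 genes named by the rule, 11 kept their call without each library in turn, namely Osbpl3 (-1.61, adjusted p = 5.2e-31), Tafa1 (1.53), Nkain3 (1.41), Egfem1 (1.38), Gpc5 (-0.89), Cdh20, a cadherin (-0.87), Mageb18 (0.86), St6galnac3 (0.81), the gene model F730043M19Rik (-0.74), Gabrd (-0.73) and Haghl (-0.70). Of Tafa1 and Gpc5 UMIs, the 1% of nuclei with most held a median over libraries of 30 and 56%. Without the 1% of nuclei with most of them, the differences were 0.69 (adjusted p = 0.30) for Tafa1 and -0.92 (adjusted p = 0.03) for Gpc5, and in nuclei with 10000 to 30000 UMIs they were 0.50 (0.65) and -0.64 (0.19).

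In DR GR-KO against NR GR-KO, 145 of 13997 genes were higher and 140 lower (2.04% of the genes, 1.04 and 1% by direction), with 24 and 15 by quasi-likelihood. Pvalb (0.08, SE 0.13, adjusted p = 0.90), Kcnc1 (0.11, SE 0.13, adjusted p = 0.83) and Syt2 (0.22, SE 0.16, adjusted p = 0.65) did not pass. Lhx6, which maintains the parvalbumin fate, was higher, at 57.7 and 50.3 CPM in NR GR-KO and 74.6 and 79.7 CPM in DR GR-KO (0.54, SE 0.13, adjusted p = 0.006), and lost its call without either DR GR-KO library (0.088 and 0.36). Among glutamate receptor genes Grin2d, Grik4, Cacng2 and Cacng3 were higher and Grm8 and Nptxr, a pentraxin receptor, were lower. The differences of the higher genes were 0.43 to 0.66, and that of Grm8 was -1.14 (SE 0.25, adjusted p = 0.0015), but -0.53 (0.39) in nuclei with 10000 to 30000 UMIs. By quasi-likelihood Grin2d, Cacng2 and Cacng3 were called, and Grik4 (0.077), Grm8 (0.070), Nptxr (0.090) and Lhx6 (0.053) were not. Grik4 and Nptxr lost their call without any 1 of the 4 libraries (0.077 to 0.62 and 0.056 to 0.48), Grin2d without either DR GR-KO library (0.14 and 0.21), Cacng2 without the DR GR-KO female (0.13), and Cacng3 and Grm8 without the DR GR-KO male (0.25 and 0.11). Nrn1 was lower (-1.43, SE 0.25, adjusted p = 1.7e-05) and so was Egr1 (-1.74, SE 0.44, adjusted p = 0.008), the latter not without the NR GR-KO male or the DR GR-KO male (0.19 and 0.21). Vip was lower as well (6.20 and 2.84 against 0.778 and 1.27 CPM, -2.10, adjusted p = 0.0027, and 0.11 and 0.12 without the NR GR-KO male or the DR GR-KO male), as were Lamp5 and Slc17a7, which mark other neurons, and the astrocyte genes Gja1 and Apoe. Of these, Lamp5 and Gja1 were not called without either DR GR-KO library (0.20 and 0.086, and 0.12 and 0.20), Slc17a7 not without the DR GR-KO female (0.20) and Apoe not without the DR GR-KO male (0.12). The count depended on single libraries. Without the NR GR-KO female library of median depth 31974, 98 genes were higher and 187 lower, of which 155 were among the 285 above. Without the NR GR-KO male 540 genes were called, without the DR GR-KO male 86 and without the DR GR-KO female 54.

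The question of whether astrocyte GR loss is accompanied by changes in Pvalb nuclei was asked in each rearing condition. In NR mice, 15 of 14294 genes were higher and 33 lower in GR-KO (0.336% of the genes, 0.105 and 0.231% by direction), of which Gpc5 alone was called by quasi-likelihood (1 gene). The split by direction turned with the libraries and nuclei used. It was 18 higher and 6 lower without the NR GR-Con male, 75 and 45 without the NR GR-KO female, 67 and 35 in nuclei with 10000 to 30000 UMIs and 22 and 11 without the 1% of nuclei with most UMIs of each gene. Gpc5, the heparan sulfate proteoglycan glypican 5, had 94.2 and 68.6 CPM in NR GR-Con and 25.7 and 22.3 CPM in NR GR-KO (-1.77, SE 0.18, adjusted p = 4.9e-19 and 0.017 by quasi-likelihood). Both GR-KO libraries were below both GR-Con libraries, which the naming rule requires and which held for 15.9% of all genes tested. The call of Gpc5 held without each library in turn. A Gpc5 UMI was seen in 8.42 to 30.3% of the nuclei of a library. The part of RNA from other cells in this difference was not tested. A large part of Gpc5 UMIs was held by few nuclei: the 1% of nuclei with most of them held 39.5 to 65.7% of all, against 4.71 to 7.40% for Pvalb UMIs. Without these nuclei the difference was -1.42 (adjusted p = 0.00081), and in nuclei with 10000 to 30000 UMIs it was -1.19 (adjusted p = 0.025). Gpc5 is also 1 of 4 genes chosen for a genotype difference in excitatory neurons of these libraries, so its call here is not independent of that choice. Of the other 3, Capn11, a calpain protease, was higher (1.45, SE 0.35, adjusted p = 0.018), though not without either NR GR-Con library or the NR GR-KO male (0.34, 0.25 and 0.43) and not in nuclei with 10000 to 30000 UMIs (0.12).

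The other named genes lower in NR GR-KO were Sorcs1, a sorting receptor of neurons, at 53.0 and 58.1 against 32.3 and 26.0 CPM (-0.93, SE 0.14, adjusted p = 1.5e-07), and Eya1, a transcriptional cofactor, at 53.6 and 52.9 against 33.1 and 34.9 CPM (-0.66, SE 0.12, adjusted p = 0.00025). Sorcs1 kept its call without each library in turn, and Eya1 lost it without the NR GR-Con male or the NR GR-KO male (0.14 and 0.093). Sdk1, an adhesion molecule of synaptic layers (-0.61, adjusted p = 0.0088), Zfpm2, a transcriptional cofactor (-0.53, 0.018), and Grik4, a kainate receptor subunit (-0.48, 0.018), were lower too. Sdk1 lost its call without either NR GR-Con library or the NR GR-KO male (0.096 to 0.23), and Zfpm2 and Grik4 lost it without any 1 of the 4 libraries (0.076 to 0.88 and 0.064 to 0.76). In nuclei with 10000 to 30000 UMIs, Zfpm2 (-0.40, adjusted p = 0.24) did not pass. The genes named as higher were Tafa1, a secreted protein (25.6 and 14.3 against 38.2 and 104 CPM), Egfem1, Cdh8, a cadherin, and the gene model AC149090.1. Tafa1 differed more between the GR-KO libraries than between the groups' nearest libraries (1.84, SE 0.44, adjusted p = 0.016, and 0.15 without the NR GR-Con female). Egfem1 lost its call without the NR GR-Con male (0.28), Cdh8 without either NR GR-Con library or the NR GR-KO female (0.62, 0.41 and 0.074) and in nuclei with 10000 to 30000 UMIs (0.28), and AC149090.1 without the NR GR-Con female or the NR GR-KO male (0.65 and 0.10).

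In NR, Pvalb (-0.10, SE 0.13, adjusted p = 1.00) and Gad1 (-0.23, SE 0.12, adjusted p = 1.00) did not pass the test between genotypes. Of the functional lists, ion channels gave 1 lower gene of 32 (Kcnmb4, a BK channel subunit, not called without any 1 of the 4 libraries, 0.093 to 0.62, nor in nuclei with 10000 to 30000 UMIs, 0.83, nor without the 1% of nuclei, 0.67) and glutamate receptors 1 lower gene of 30 (Grik4). The perineuronal net (19 tested), GABA receptor (18), presynaptic (25), immediate early (14) and corticosteroid target (13) lists gave 0 calls by either edgeR test and by DESeq2, with 4, 1, 3, 1 and 1 genes at an unadjusted p below 0.05. Over all genes, 0.105% were called higher and 0.231% lower, and 647 of 14294 had an unadjusted p below 0.05 by the likelihood ratio test. At these shares, 0 calls in so short a list carry little information. The astrocyte marker Etnppl was called lower, at 1.57 and 1.45 CPM in NR GR-Con and 0.0747 and 0 CPM in NR GR-KO, so Pvalb nuclei of GR-Con libraries held RNA of this astrocyte gene at a low level. Of 9 astrocyte markers, 3 had an unadjusted p below 0.05 (Etnppl, Slc1a2 and Slc1a3), and the sum of the 9 was 670 and 562 CPM in NR GR-Con and 507 and 528 CPM in NR GR-KO. All 3 markers of oligodendrocyte precursors (Pdgfra, Cspg4 and Vcan) had an unadjusted p below 0.05 and none passed after adjustment, and their sum was 15.9 and 8.68 CPM in NR GR-Con and 7.54 and 5.34 CPM in NR GR-KO. Both sums were lower in both GR-KO libraries. The part of this RNA in the genotype result was not tested.

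In DR mice, 25 of 14419 genes were higher and 36 lower in GR-KO (0.423% of the genes, 0.173 and 0.25% by direction). By quasi-likelihood 0 were called, with 1055 genes at an unadjusted p below 0.05, and DESeq2 called 10 higher and 16 lower. In nuclei with 10000 to 30000 UMIs the split turned, to 23 higher and 15 lower. Pvalb was higher in DR GR-KO, at 50.7 and 53.4 CPM against 33.9 and 38.4 CPM in DR GR-Con (0.55, SE 0.13, adjusted p = 0.015, and 0.22 by quasi-likelihood), and the call was lost without the DR GR-Con male or either DR GR-KO library (0.11, 0.24 and 0.80). Kcnc1 (0.46, SE 0.12, adjusted p = 0.026) and Grin2a (0.54, SE 0.11, adjusted p = 0.0027) were higher too, as was Cacng2, stargazin, at 276 and 290 against 197 and 206 CPM (0.50, SE 0.12, adjusted p = 0.014). Kcnc1 lost its call without the DR GR-Con female or either DR GR-KO library (0.15, 0.33 and 0.91), and Grin2a and Cacng2 without either DR GR-KO library (0.16 and 0.48, and 0.13 and 0.91). These comparisons use the same DR GR-Con libraries as the rearing comparison within GR-Con and are not independent of it.

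When rearing was a term in a fit of all 8 libraries, 4 of 14867 genes were higher and 10 lower in GR-KO (0.0942%, or 0.0269 and 0.0673%). The split turned to 7 higher and 3 lower in nuclei with 10000 to 30000 UMIs, to 7 and 2 without the 1% of nuclei, to 7 and 4 without the NR GR-Con male and to 18 and 14 without the NR GR-KO female. By quasi-likelihood 0 were called, with 792 genes at an unadjusted p below 0.05, and DESeq2 called 3, namely Cre, Sorcs1 and Adra1b, an α1 adrenergic receptor. Cre is vector RNA with 0 UMIs in GR-Con, so its call was fixed by the design and is no response of the nuclei. It is among the 4 called higher by the likelihood ratio test. Vector RNA was not left out of the other fits either. Sorcs1 was lower in GR-KO (-0.73, SE 0.14, adjusted p = 0.00022), at 26.0 to 53.4 CPM against 53.0 to 67.0 CPM, with the DR GR-KO female inside the GR-Con range. Adra1b stood at 15.7, 13.3, 11.4 and 14.9 CPM in GR-Con and at 7.99, 6.70, 7.63 and 7.21 CPM in GR-KO, without overlap (-0.90, SE 0.14, adjusted p = 2.1e-06). Dpyd, which breaks down pyrimidines, was at 11.1 to 13.8 CPM in GR-Con and 7.32 to 8.29 CPM in GR-KO (-0.67, SE 0.13, adjusted p = 0.0004). These 3 genes kept their call without each library in turn and were picked after their values were seen. The call of Adra1b also held in nuclei with 10000 to 30000 UMIs (-0.78, adjusted p = 0.0011), where Sorcs1 (-0.44, 0.40) and Dpyd (-0.52, 0.18) did not pass. Without the 1% of nuclei with most UMIs of each gene, Adra1b was again called (-0.92, adjusted p = 2.5e-05) and Sorcs1 (-0.63, 0.19) and Dpyd (-0.65, 0.12) were not. Genes of other cells were called lower as well. Sox10, of oligodendrocyte lineage cells, stood at 0.227 to 1.01 CPM in GR-KO and 1.33 to 2.94 CPM in GR-Con. Fam107a, which astrocytes express, had 0.795 to 1.56 against 2.02 to 3.63 CPM and Etnppl 0 to 0.380 against 0.432 to 1.57 CPM.

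By the rule, Etv5, an ETS transcription factor (0.77, adjusted p = 5.5e-06), Nacc2, a BTB domain repressor (0.71, 5.7e-05), and Gfra1, a receptor for GDNF (0.66, 0.0051), were named as higher in DR GR-KO. Nacc2 had 29.5 and 30.4 CPM in DR GR-Con and 47.6 and 49.3 CPM in DR GR-KO. Named as lower were Calb1, calbindin, at 43.6 and 50.6 against 26.2 and 18.2 CPM (-1.08, SE 0.17, adjusted p = 7.7e-07), Tafa1 (-1.45), Pde1a (-1.28) and Adarb2 (-2.60). Adarb2, a marker of interneurons from the caudal ganglionic eminence, had 210 and 49.6 against 34.1 and 8.86 CPM, and in all libraries but 2 more than 70% of its UMIs lay in the 1% of nuclei with most of them. Etv5, Calb1 and Tafa1 kept their call without each library in turn; the others lost it without the DR GR-KO female (Nacc2 0.16, Gfra1 0.74, Pde1a 0.71 and Adarb2 0.68) or the DR GR-KO male (Gfra1 0.053 and Pde1a 0.25). Pde1a also lost it without the DR GR-Con female (0.073) and Adarb2 without the DR GR-Con male (0.10). Without the 1% of nuclei with most Tafa1 UMIs, its difference was -0.40 (adjusted p = 0.96), and in nuclei with 10000 to 30000 UMIs it was -0.40 (0.99). Pde1a did not pass under either (0.098 and 0.64). Vip was lower here as well (3.72 and 3.02 against 0.778 and 1.27 CPM, adjusted p = 0.022), though not without the DR GR-Con male or either DR GR-KO library (0.088, 0.62 and 0.32), and not in nuclei with 10000 to 30000 UMIs (0.86).

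The difference of the differences was then tested directly, as the rearing effect in GR-Con minus that in GR-KO, over all 8 libraries. Of 14867 genes, 12 had a higher and 8 a lower value (0.135% of the genes, 0.0807 and 0.0538% by direction), and the quasi-likelihood test called 2, Gpc5 and Nacc2. Pvalb itself did not pass (-0.65, SE 0.17, adjusted p = 0.081) and nor did Kcnc1 (-0.59, SE 0.17, adjusted p = 0.15), Syt2 (-0.71, SE 0.22, adjusted p = 0.22), Bcan (-0.60, SE 0.16, adjusted p = 0.10) or Grin2a (-0.59, SE 0.34, adjusted p = 0.91), whose NR GR-KO libraries stood apart from each other at 740 and 1405 CPM. For Pvalb the call depended on the setting. The value passed in nuclei with 10000 to 30000 UMIs (-0.77, adjusted p = 0.0022), with sex as a term (-0.65, 0.02), without the 1% of nuclei with most of its UMIs (-0.69, 0.022) and without the DR GR-Con female (-0.72, 0.039). It did not pass by quasi-likelihood (0.26), by DESeq2 (0.19), with RLE size factors (0.071), without a filter on low counts (0.18), with equal numbers of nuclei (0.20) or without any 1 of the other 7 libraries (0.054 to 0.70), and its direction was the same throughout.

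Genes that passed the interaction test included Gpc5, which stood at 45.0 and 43.2 CPM in DR GR-Con and at 40.6 and 51.6 CPM in DR GR-KO. Its value was -1.85 (SE 0.25, adjusted p = 9.1e-10), but -1.19 (adjusted p = 0.16) without the 1% of nuclei with most Gpc5 UMIs and -1.37 (0.10) in nuclei with 10000 to 30000 UMIs. Within GR-KO its rearing difference was 0.97 (adjusted p = 3.2e-06), and 0.27 (0.56) and 0.75 (0.095) under these alternatives. Nacc2 had 35.1, 34.2, 30.7 and 27.7 CPM in NR GR-Con and NR GR-KO, and the DR GR-KO libraries stood above the other 6 (-0.96, SE 0.16, adjusted p = 4.3e-05). Eya1 had its lowest level in NR GR-KO (-0.76, SE 0.16, adjusted p = 0.0069). With values above 0, Tafa1 (3.30), Calb1 (1.77), Egfem1 (1.60) and Kcnt2, a sodium-activated potassium channel (0.88), passed, as did Gabra2, a GABA receptor α subunit (1.04, SE 0.23, adjusted p = 0.010, and 0.05 without the 1% of nuclei). For Tafa1 the value was 1.85 (adjusted p = 0.022) without the 1% of nuclei with most of its UMIs and 1.46 (adjusted p = 0.07) in nuclei with 10000 to 30000 UMIs. Tafa1, Egfem1, Gpc5 and Nacc2 kept their call without each library in turn. Eya1 lost it in 5 of 8 such fits, Calb1 in 4, Kcnt2 in 5 and Gabra2 in 2, in each case among them without the DR GR-KO female (0.12, 0.56, 0.56 and 0.35) and without the NR GR-Con female (0.065, 0.21, 0.20 and 0.074). Without the NR GR-KO female library, which stood apart in depth, 48 genes passed.

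**Figure D4:**
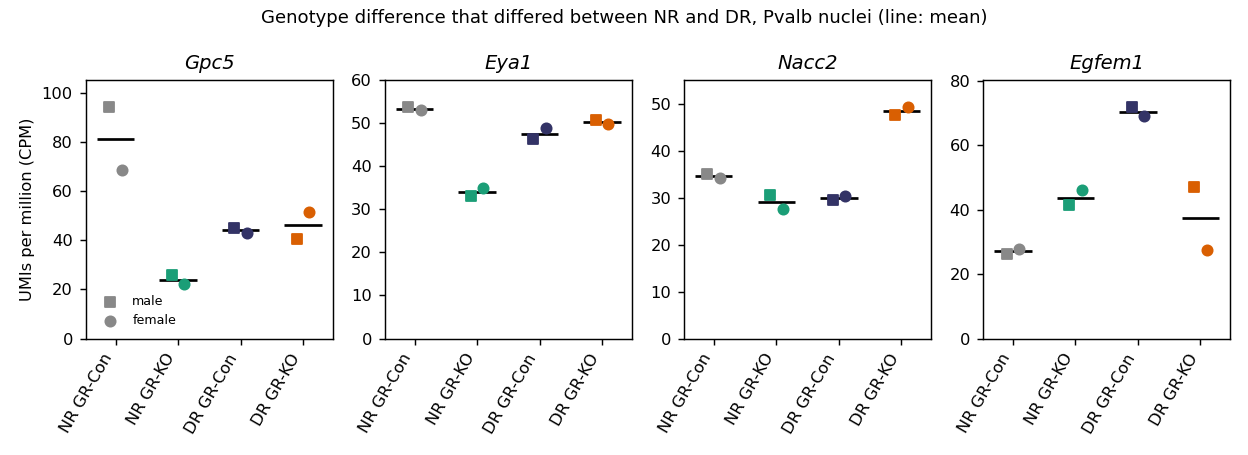
CPM (y axis, from 0) of Gpc5, Eya1, Nacc2 and Egfem1 in Pvalb nuclei by group (x axis), with a square for the male and a circle for the female library and a line for their mean. Gpc5 and Eya1 are lowest in NR GR-KO, Nacc2 is highest in DR GR-KO (47.6 and 49.3) and Egfem1 is highest in DR GR-Con.

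Named genes differed in the share of their UMIs that the nuclei with most of them held. This share also rises where a gene has few UMIs, so it does not measure concentration alone. The 1% of nuclei with most UMIs of a gene held a median over libraries of 3.26% of them for Osbpl3, 3.53% for Kcnc1, 5.43% for Gabrd, 5.80% for Pvalb and 8.22% for Miat. For other genes of the rearing comparison the share was higher, with 12.1% for Sgcd, 14.2% for Mageb18, 22.9% for Cdh4, 34.8% for Npy, 37.6% for Grm8 and 44.5% for Bdnf. Bdnf was seen in only 1.76 to 7.52% of the nuclei of a library and Npy in 3.07 to 14.4%. Among genes named in the genotype comparisons, the values were 3.47% for AC149090.1, 7.99% for Zfpm2, 8.38% for Sdk1, 10.7% for Cdh8, 13.0% for Grik4, 14.9% for Eya1, 20.7% for Sorcs1, 30.0% for Tafa1, 45.2% for Egfem1, 56.0% for Gpc5 and 80.9% for Adarb2. When those nuclei were left out gene by gene, 33 genes were called in NR between genotypes, of which 22 were among the 48, and 544 for rearing over 8 libraries, of which 445 were among the 490.

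**Figure D5:**
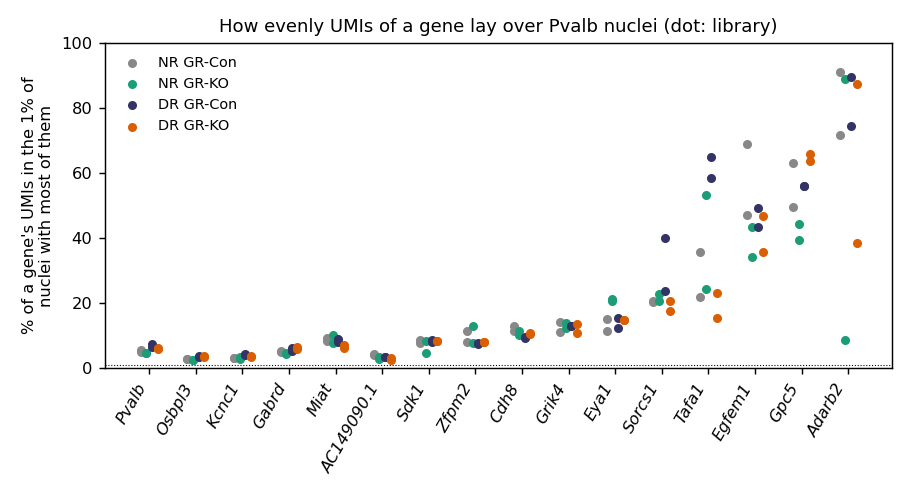
Percent of a gene's UMIs held by the 1% of Pvalb nuclei with most of them (y axis) for named genes (x axis), 1 dot per library coloured by group. The dotted line marks 1%, the share if each nucleus held equally many UMIs. Genes with few UMIs per nucleus lie above the line by sampling alone. Pvalb, Osbpl3, Kcnc1 and Gabrd lie below 10% in every library, and Egfem1, Gpc5 and, in most libraries, Adarb2 above 30%.

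The rearing difference of Pvalb nuclei was set against that of Sst and Vip nuclei of the same libraries, with the difference of the differences tested. Of 15328 genes, 65 had a higher and 63 a lower rearing difference in Pvalb than in Sst nuclei (0.835%, or 0.424 and 0.411%), and of 14935 genes, 8 and 27 against Vip nuclei (0.234%, or 0.0536 and 0.181%). These counts and the values that follow are from the likelihood ratio test. The quasi-likelihood test called 11 genes against Sst and 5 against Vip nuclei (0.0718 and 0.0335%). Miat differed from both: its rearing difference was 0.71 in Pvalb, 0.09 (SE 0.10) in Sst and 0.22 (SE 0.09) in Vip nuclei, a difference of 0.63 (SE 0.08, adjusted p = 5.4e-10) and of 0.47 (SE 0.10, adjusted p = 0.0051). Grm8 also differed from both. It was at 0.07 (SE 0.19) in Sst and -0.21 (SE 0.11) in Vip nuclei beside -0.94 in Pvalb nuclei (-1.07, adjusted p = 0.036, and -0.75, adjusted p = 0.013). The call of Miat against Vip nuclei was lost without either NR GR-Con library (0.051 and 0.074), that of Grm8 against Sst nuclei without 5 of the 8 libraries (0.059 to 0.28) and that of Grm8 against Vip nuclei without 3 (0.067 to 0.16).

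Against Sst nuclei, Cacng3 (0.64, SE 0.12, adjusted p = 0.00014), Syn2 (0.31, SE 0.07, adjusted p = 0.0062) and Chl1 (0.45, SE 0.09, adjusted p = 0.00037) had a higher and Npy (-1.19, SE 0.20, adjusted p = 2.0e-05) and Cort (-1.37, SE 0.27, adjusted p = 0.00033) a lower rearing difference in Pvalb nuclei. Of these, Syn2 lost its call without 5 libraries (0.053 to 0.14). In Sst nuclei the rearing difference of Npy was -0.07 (SE 0.20) and that of Cort 0.77 (SE 0.28, adjusted p = 0.17). Cntnap4, an adhesion molecule that is linked to release from parvalbumin cells, was lower against both types (-0.59, SE 0.13, adjusted p = 0.0026, and -0.72, SE 0.12, adjusted p = 2.3e-06). In Pvalb nuclei it did not pass the test between DR and NR (-0.21, SE 0.11, adjusted p = 0.35), and in Vip nuclei it was higher in DR (0.47, SE 0.10, adjusted p = 0.0028). Mme differed from Vip nuclei by 1.44 (SE 0.24, adjusted p = 5.4e-06), with 0.46 in Pvalb and -1.01 in Vip nuclei. Pcsk1, a prohormone convertase, was lower than in both types (-0.83, adjusted p = 0.010, and -0.89, adjusted p = 0.00051), the call against Sst nuclei not without the DR GR-Con male or either DR GR-KO library (0.081, 0.061 and 0.076).

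Other rearing differences stood in several types. Within Sst nuclei the rearing test called 1% and within Vip nuclei 1.02% of the genes tested. These fits held 2869 Sst and 2396 Vip nuclei, against 3905 Pvalb nuclei, so the shares do not rank how strongly the types responded. Osbpl3 was lower in DR in Sst (-1.02, SE 0.21, adjusted p = 0.0012) and Vip nuclei (-1.38, SE 0.23, adjusted p = 5.3e-06), as was Haghl (-0.69 and -0.52) and as was Dbp (-1.01 and -0.82, adjusted p = 0.018 in each). Gabrd was lower in Sst nuclei (-0.69, SE 0.16, adjusted p = 0.006) and had a value of -1.12 in Vip nuclei (SE 0.33, adjusted p = 0.056). Kirrel3 was higher in Sst nuclei (0.66, SE 0.15, adjusted p = 0.0046) and had 0.34 (SE 0.13, adjusted p = 0.19) in Vip nuclei. The genes in this paragraph did not pass the test of a difference between Pvalb and the other types.

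The genotype difference in NR mice was also set against that in Sst nuclei, where 14 of 14966 genes had a higher and 28 a lower value in Pvalb nuclei (0.281%, or 0.0935 and 0.187%). Gpc5 differed by -2.25 (SE 0.24, adjusted p = 1.1e-16 and 0.019 by quasi-likelihood), with -1.77 in Pvalb and 0.52 (SE 0.22, adjusted p = 0.82) in Sst nuclei. In Vip nuclei its genotype difference was -0.99 (SE 0.24, adjusted p = 0.090). Sorcs1 differed by -1.13 (SE 0.18, adjusted p = 3.0e-06), with 0.20 (SE 0.17) in Sst nuclei. Syt2 differed by 1.68 (SE 0.41, adjusted p = 0.020), a value that rests on -1.97 (SE 0.55) in Sst nuclei, where the gene was at 2.9 CPM, and it was not called without the NR GR-Con male or either NR GR-KO library (1.0, 0.075 and 0.076).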

How the data were processed

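Nuclei of V1 were profiled by single-nucleus RNA-seq (10x 3' chemistry) in 8 libraries. The authors aligned reads with Cell Ranger 8.0.1 to mm10 with the viral eGFP sequence added, removed nuclei of low or very high counts and doublets, clustered them in Seurat 5.3.0 and deposited UMI counts per gene and nucleus with a cell table of type, condition and genotype. The percent of mitochondrial UMIs that the authors deposited per nucleus was read but enters no result. No nucleus was removed here.

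UMI counts of Pvalb nuclei were summed per library, filtered (filterByExpr), scaled by TMM and compared by the likelihood ratio test (glmLRT) of edgeR 4.0.16 in R 4.3.3. The study's methods name the same test but give no filter or scaling. The likelihood ratio test is liberal with 2 libraries a group, so counts by the quasi-likelihood test are given as well. Adjusted p is Benjamini-Hochberg's over every gene of a fit, with calls below 0.05, and each SE was obtained as the size of the log2 change over the square root of its likelihood ratio. The fits were tested on simulated data. The genes named in each comparison are those called with the largest fold change at an average log2 CPM of at least 5, up to 8 per direction in the main comparisons and 4 in the others, without overlap between the libraries of both groups except for the interaction and cell type differences. The 29 gene lists and their members, and the nuclei described, were chosen with earlier results of these data known. Alternatives were edgeR's quasi-likelihood F-test, DESeq2 1.42.0, RLE scaling, no filter, sex as a term, 277 nuclei per library, 1 fit of all 8 libraries and leaving out each library. After the data were seen, fits of nuclei with 10000 to 30000 UMIs and without the 1% of nuclei with most UMIs of each gene were added. The latter chooses nuclei by the counts of the tested gene itself, which can shift the difference of a sparse gene. The share of Pvalb nuclei in a library was compared by edgeR's quasi-likelihood F-test and the share with a Pvalb UMI by exact permutation (scipy 1.17.1). Intervals and limits of 0 counts (3 counts) cover counting error only. Some genes that passed these rules are not reported here, though they stay in the counts.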

Additional observations from a re-analysis of the deposited data

Results flagged for a closer look

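In 4 of the 60 groups of 4 libraries tested, 1 library lay far from the other 3, and chance alone marks about 1 group in 20. Mageb18 stood at 35.1 CPM, Gabrd at 57.4 CPM and Lgi2 at 70.9 CPM in the NR GR-KO male library, and Osbpl3 stood at 745 CPM in the DR GR-KO male library.

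The rearing effect differed between GR-Con and GR-KO, by the interaction test, in 20 genes. The values (effect in GR-Con minus effect in GR-KO, log2) were 3.30 for Tafa1, 1.77 for Calb1, 1.60 for Egfem1, 0.88 for Kcnt2, -1.85 for Gpc5, -0.96 for Nacc2 and -0.76 for Eya1.

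The rearing effect differed between Pvalb and Sst nuclei in 128 genes. It was higher in Pvalb nuclei by 1.07 for Arhgap6, by 0.64 for Cacng3, by 0.63 for Miat and by 0.62 for Prkd1, a protein kinase D. The difference was -1.79 for Hs3st4, a heparan sulfate sulfotransferase, -1.08 for Tll1, a metalloprotease, -1.07 for Grm8 and -0.85 for Gm5820. Of these 8 genes, 4 kept their call without each library in turn and 2 were called by quasi-likelihood. Against Vip nuclei 35 genes differed, among them Mme at 1.44, Nckap5 at 0.59 and Miat at 0.47 above 0, and Hs3st4 at -1.27, Fndc1 at -0.84, Grm8 at -0.75 and Cntnap4 at -0.72. Of the 7 named here, 3 kept their call without each library in turn and 1 was called by quasi-likelihood.

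The genotype effect in NR mice differed between Pvalb and Sst nuclei in 42 genes. The difference was 1.68 for Syt2, 0.90 for Tafa1, 0.78 for Igsf11, an adhesion molecule, and 0.72 for Nkain3, and it was -2.25 for Gpc5, -1.79 for Adarb2, -1.44 for Caln1, a calcium-binding protein, and -1.30 for Gm30382. By quasi-likelihood only 1 of these 8 genes, Gpc5, was called, and most of the calls were lost without some single library. For Adarb2, the 1% of nuclei with most of its UMIs held a median of 80.9% of them.

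In the RNA of the vector, which is no mouse gene, Cre UMIs lay in Pvalb nuclei of GR-KO mice, in 8.38 and 3.25% of the nuclei of the NR male and female and in 1.26 and 3.73% of those of the DR male and female. Astrocytes and other neurons of these mice held Cre UMIs too. The CPM of EGFP, which the same construct encodes, was lower in Pvalb nuclei than in astrocytes in each GR-KO library.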

How the results depend on the processing

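No paired analysis was possible because the library names carry no replicate number, so only sex, with 1 male and 1 female library in each group, was fitted as a term. With 2 mice a group the number of called genes depended on the setting, while 0 of 2519 values of the 195 calls described or listed, in which a gene counts once for each comparison that called it, changed sign under any alternative. These calls were chosen for passing the main fit, and the alternatives reuse the same nuclei or parts of them. An unchanged sign is therefore no independent support. In calls lost, the quasi-likelihood F-test took 131 of 195, DESeq2 42 of 137, RLE scaling 0 of 156, no filter 16 of 195, sex as a term 1 of 156, equal numbers of nuclei 46 of 154, nuclei with 10000 to 30000 UMIs 34 of 156, the fits without the 1% of nuclei 12 of 153, 1 fit of all libraries 31 of 98 and leaving out a library 354 of 1119. The cause was not tested for any of these, except that fits with fewer libraries or nuclei hold fewer data. Where 1 library was left of a group, it was assumed to vary like the others.

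The quasi-likelihood test called 1 gene between genotypes in NR (48 by the likelihood ratio test), 0 in DR (61, with 1055 genes at an unadjusted p below 0.05), 46 for rearing in GR-Con (217), 39 in GR-KO (285), 2 for the interaction (20), 208 for rearing over 8 libraries (490), 0 for genotype over 8 libraries (14, with 792 genes at an unadjusted p below 0.05), and 11, 5 and 1 for the differences from Sst, from Vip and, by genotype, from Sst nuclei (128, 35 and 42). DESeq2 called 7, 26, 108, 77, 314 and 3 for NR genotype, DR genotype, rearing in GR-Con, rearing in GR-KO, rearing and genotype over 8 libraries. With sex as a term the counts were 143 in NR, 128 in DR, 858 for rearing in GR-KO, 61 for the interaction and 23 for genotype over 8 libraries. With equal numbers of nuclei they were 29 for DR genotype, 134 for rearing in GR-Con, 299 for rearing and 7 for genotype over 8 libraries. Nuclei with 10000 to 30000 UMIs gave 102 in NR, 38 in DR, 430 for rearing in GR-KO and 100 for the interaction. One fit of all libraries gave 27 in NR and 32 in DR, and leaving out the 1% of nuclei gave 9 for genotype over 8 libraries. Without a filter the differences between cell types gave 224, 132 and 75. The share of nuclei with a Pvalb UMI differed between DR and NR by -14.4 points unthinned and by 0.0434 points at 2000 UMIs, in place of -2.95.

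Leaving out 1 library moved the counts as follows. Genotype in NR gave 24 to 120 genes (lowest without the NR GR-Con male, highest without the NR GR-KO female) and in DR 11 to 226 (without the DR GR-KO female and the DR GR-Con male). Rearing in GR-Con gave 77 to 410 (without the NR and the DR GR-Con male) and in GR-KO 54 to 540 (lowest without the DR GR-KO female, highest when the male of NR GR-KO was left out). The interaction gave 8 to 56 (lowest without the DR GR-KO female, highest when the male of DR GR-Con was left out). Over 8 libraries rearing gave 199 to 564 (without the DR and the NR GR-KO male) and genotype 11 to 39 (without the NR and the DR GR-Con male). The differences from Sst, from Vip and, by genotype, from Sst nuclei gave 40 to 234, 15 to 224 and 11 to 152, the highest each time without the NR GR-KO male and the lowest without the DR GR-KO male (40) or the NR GR-Con male (15 and 11). The log2 share of Pvalb nuclei ranged from -0.11 to 0.18 between DR and NR and from -0.32 to -0.02 between GR-KO and GR-Con, and the share with a Pvalb UMI from -4.29 to -1.16 and from 2.02 to 5.28 points. Differences that did not pass the test could change sign. Gad1 ranged from -0.0143 to 0.2923 for genotype in DR, from -0.2241 to 0.0753 for rearing in GR-Con (0.0247 with equal numbers of nuclei), from -0.1402 to 0.0155 for genotype over 8 libraries and from -0.3192 to 0.2173 for the genotype difference from Sst nuclei, where Pvalb ranged from -0.4222 to 1.0378.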
